A study of Homo sapiens with 38 samples.

Results

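The multidomain genes of the BCL2 family were followed across 7 treatments of a melanoma line and of a drug-resistant clone of it. The 7 genes were the survival genes MCL1, BCL2L1, BCL2L2, BCL2 and BCL2A1 and the pore-forming death genes BAX and BAK1, chosen by name. Every probe set that names one of them alone was taken, which gave 20 probe sets of the 41097 that name a single gene, for 7 of 19775 genes. MCL1 had 6, BCL2 and BCL2L1 4 each, BCL2L2 and BAX 2 each, and BCL2A1 and BAK1 1 each. All 20 passed the filter on low signals, and 1 more probe set that names BCL2L2 together with other genes was not used. The main probe set of a gene was the one with the highest mean signal over the 38 arrays.

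The resistant cells were 16R6-4, a clone of A375 selected for resistance to GSK2118436 (GSK436, a RAF kinase inhibitor known as dabrafenib), and they were set against parental A375, a human melanoma line with an activated BRAF gene. Each line was kept for 24 h with 0.1 µM GSK436, 1 µM GSK436, 10 nM GSK1120212 (GSK212, a MEK inhibitor known as trametinib), 30 nM GSK212, 10 nM GSK212 with 0.1 µM GSK436, 10 nM GSK212 with 1 µM GSK436, or the solvent DMSO. All cells grew in RPMI1640 medium with 10% serum, and RNA was hybridised to one-colour Affymetrix arrays. There were 20 arrays of the clone and 18 of parental cells, with 3 arrays a group except for the clone with DMSO and parental cells with 0.1 µM GSK436, 1 µM GSK436 or 30 nM GSK212, which had 2. The resistant line is a single clone, so resistance and the clone's other traits cannot be told apart. The labels do not tie replicate arrays to separate cultures, so p-values measure the spread between these samples, which may be technical. In RNA from a whole culture, fewer cells of a kind and less RNA per cell cannot be told apart.

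Proteins of the BCL2 family control the step at which mitochondria release cytochrome c and a cell commits to apoptosis. BAX and BAK1 proteins form the pores in the outer mitochondrial membrane, and MCL1, BCL-XL (the product of BCL2L1), BCL-W (of BCL2L2), BCL2 and BCL2A1 bind and restrain them. BH3-only proteins such as BIM, BMF and NOXA tie up the survival proteins or activate the pore formers. ERK, the kinase below RAF and MEK, is known to phosphorylate and stabilise MCL1 protein, and MCL1 mRNA and protein both have short lives. The arrays measure mRNA only.

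The arrays differed in ways that bear on these genes. Signals came from MAS5, with each array scaled to a trimmed mean of 150.0, while array medians ran between 21.6 and 52.4. On that scale the median log2 change over all tested probe sets was 0.05 to 0.20 in the clone and 0.14 to 0.37 in parental cells, so each change is also given relative to that median where it matters. The ratio of 3′ to 5′ beta-actin signals, a measure of RNA integrity and labelling, ran between 3.72 and 45.0 and was above 20 on 15 arrays. Its group means were 8.16 to 22.7 for the drug groups of the clone against 5.47 with DMSO, and 10.7 to 37.3 for those of parental cells against 7.76 with DMSO. SOX10, a factor found in the melanocyte lineage, was at 1.96 to 20.96 in the clone and at 427 to 1414 in parental cells. The clone thus lacked it on 20 of 20 arrays at the filter's threshold of 34.9. MITF, another melanocyte factor, passed that threshold on every array of both lines. The pigment cell genes MLANA, PMEL, TYR and TYRP1 were low in both, with 7 of 80 values in the clone and 16 of 72 in parental cells above it.

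Among markers of other cell types, the fibroblast genes LUM and COL1A1 were called higher with GSK212 or a combination in the clone and with all 6 treatments in parental cells. The summed signal of the 5 fibroblast markers was 61.8 to 479 with drug against 38.5 to 75.4 with DMSO in the clone, and 347 to 713 with drug against 82.9 to 149 with DMSO in parental cells. The 6 epithelial markers summed to 7452 to 13824 with drug against 7651 to 10820.3 with DMSO in the clone, and to 4354 to 8223 with drug against 5565 to 8894 with DMSO in parental cells. The keratin gene KRT14 alone was at 1.08 to 41.1 in the clone and at 124.9 to 3451 in parental cells, where all 6 treatments raised it. KRT8 and KRT18 stood the other way between the lines, KRT8 at 476 to 2159 in the clone and 157 to 426 in parental cells, and KRT18 with a median of 7224 in the clone and 3962 in parental cells. The 7 leukocyte markers on the arrays summed to 46.9 to 211 with drug against 53.8 to 86.2 with DMSO in the clone, and to 106 to 295 with drug against 93.7 to 192 with DMSO in parental cells. The part of these markers in the results below was not tested.

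A probe set was called changed when its adjusted p (limma, all 35888 tested probe sets, Benjamini-Hochberg within a comparison) was under 0.05 and its log2 change was at least 1 in size. With main probe sets, 0 of 42 tests of 7 genes and 6 treatments against DMSO were called in the clone and 6 of 42 in parental cells, all 6 of them MCL1 and all lower. Over the same 6 comparisons, 2.1% of all probe set tests were called in the clone, and 11.2% in parental cells, where 4.27% were lower. By treatment the share called in either direction in the clone was 0.00279% at 0.1 µM and 0.0474% at 1 µM for GSK436, 1.89% at 10 nM and 2.82% at 30 nM for GSK212, and 3.25% and 4.59% for the combinations. In parental cells, in the same order of treatments, it was 14.2%, 15.2%, 8.94%, 7.18%, 8.07% and 13.8%. Unadjusted p-values under 0.05 numbered 8 of 42 in the clone and 9 of 42 in parental cells, of which MCL1 gave 4 and 6. The share of all probe sets with such a p was not tallied, so these counts have no background to be read against. The median change of the 7 genes was -0.59 to 0.16 in the clone, where all genes' main probe sets had medians of 0.05 to 0.22, and -0.26 to 0.30 in parental cells, where all genes had 0.17 to 0.39. A call was thus made for 1 gene of the 7, in parental cells, and the other 6 are described below by their values.

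**Figure D1:**
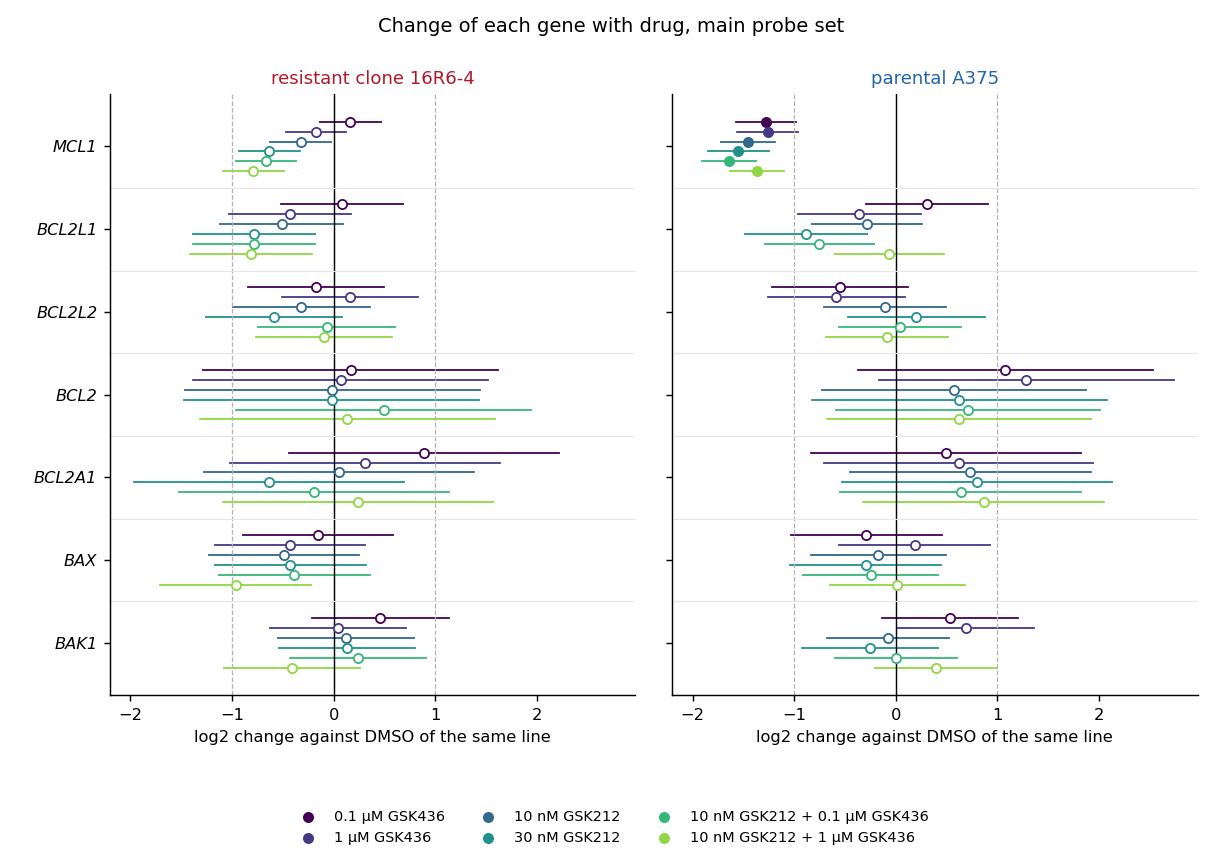
Change of the 7 genes with each treatment against DMSO of the same line (x axis, log2 scale; main probe sets), in the resistant clone (left) and parental cells (right). Points are estimates, lines are 95% intervals of the limma fit, filled points were called and dashed lines mark a log2 change of 1 in size. Filled points are seen for MCL1 in parental cells alone, at -1.26 to -1.64.

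MCL1 mRNA (gene at chr1:150574558-150579610, GRCh38.p14) fell in parental cells to less than the DMSO level on every drug array, and in the clone every array stayed above the parental drug arrays except for an overlap with 1 of them. In the clone, probe set 200797_s_at read 2702, 3189 and 3624 with 0.1 µM GSK436 and 2450.4, 2549 and 2486 with 1 µM GSK436. It read 2398, 2129 and 2214 with 10 nM GSK212 and 1891, 1919 and 1638 with 30 nM GSK212. With 10 nM GSK212 it read 1925, 1697 and 1698 beside 0.1 µM GSK436 and 1462, 1771 and 1656 beside 1 µM GSK436, against 3128 and 2527 with DMSO. GSK436 arrays of the clone thus overlapped those with DMSO, while all 12 arrays with GSK212, alone or combined, lay below both DMSO arrays. Of all probe sets, 12% lay lower without overlap with 10 nM GSK212, 10.2% with 30 nM GSK212, 12.1% with the combination of 0.1 µM and 13.7% with that of 1 µM.

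In parental cells MCL1 read 1530.3 and 1187 with 0.1 µM GSK436 and 1363 and 1359.5 with 1 µM GSK436. It read 1324, 1187 and 1077 with 10 nM GSK212 and 1078 and 1154 with 30 nM GSK212. With 10 nM GSK212 it read 1019.9, 1071 and 1051 beside 0.1 µM GSK436 and 1159.8, 1344 and 1296 beside 1 µM GSK436, against 3141, 3047 and 3659 with DMSO. No drug array overlapped a DMSO array, and the highest of the 15 drug arrays (1530.3) lay well below the lowest DMSO array (3047). Of all probe sets, 16.6% lay lower without overlap at 0.1 µM and 17.7% at 1 µM for GSK436, 10.7% at 10 nM and 14.2% at 30 nM for GSK212, and 11.1% and 13.3% for the combinations. The group means ran in the order parental DMSO (3282 ± 329.6), clone with 0.1 µM GSK436 (3172 ± 461), clone with DMSO (2828 ± 425) and clone with 1 µM GSK436 (2495 ± 50.1, SD, n = 3, 3, 2 and 3). Next came the clone with 10 nM GSK212 (2247 ± 138), with 30 nM GSK212 (1816 ± 155), with the combination of 0.1 µM (1773 ± 131) and with that of 1 µM (1629.6 ± 156, SD, n = 3 each). The 6 parental drug groups came last, between 1361 ± 2.23 (SD, n = 2, 1 µM GSK436) and 1047 ± 25.7 (SD, n = 3, the combination of 0.1 µM). Of 13 neighbouring pairs in that order, 9 had overlapping arrays.

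**Figure D2:**
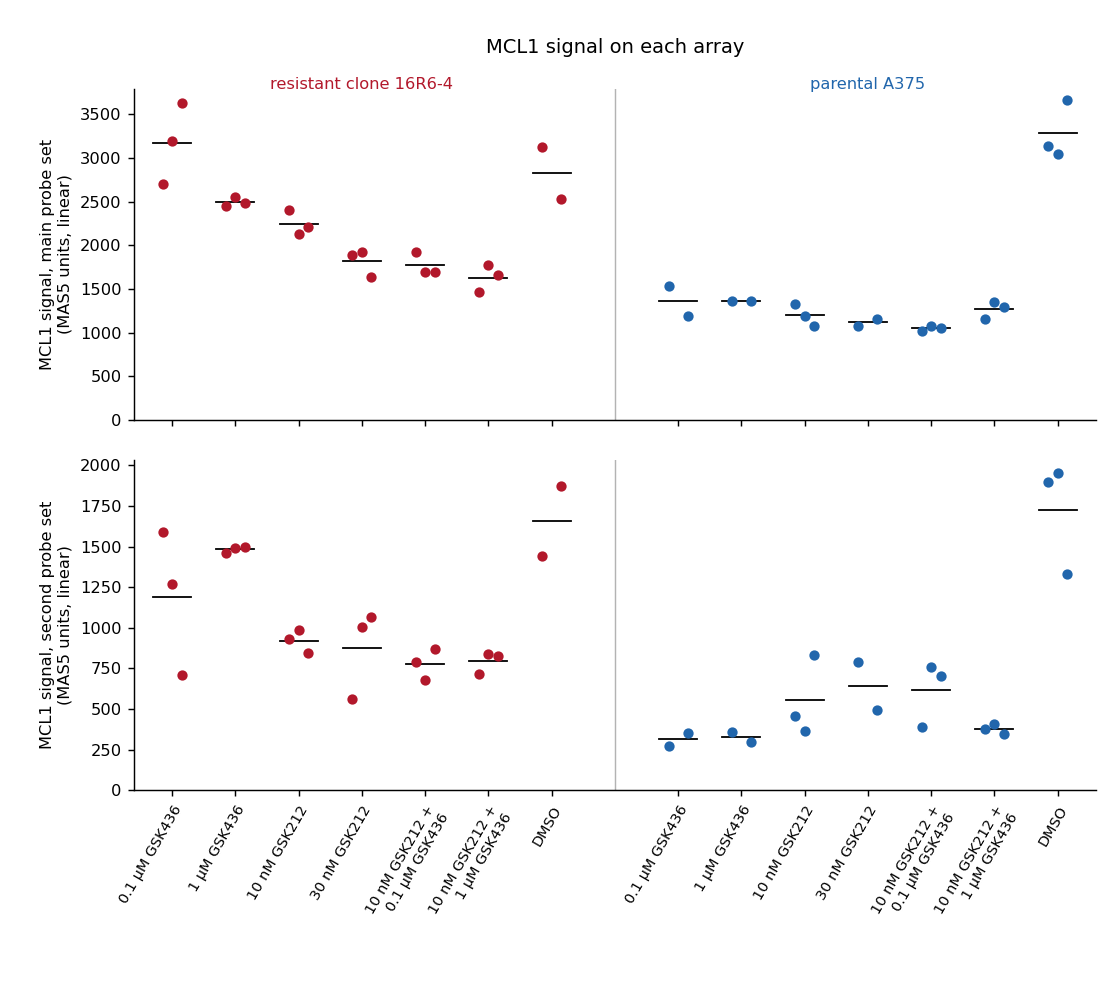
MCL1 signal on each of the 38 arrays (y axis, linear MAS5 units from 0) by treatment, for the main probe set 200797_s_at (top) and 200798_x_at (bottom), in the resistant clone (left) and parental cells (right). Points are arrays and bars are group means. Parental drug arrays reach no higher than 1530.3 in the top panel, against 3047 or more with DMSO.

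The change of MCL1 against DMSO in the clone was 0.16 (adjusted p = 0.94) with 0.1 µM and -0.17 (adjusted p = 1) with 1 µM GSK436, with a standard error of 0.15 for each treatment. It was -0.32 (adjusted p = 0.315) with 10 nM GSK212, -0.63 (adjusted p = 0.00657) with 30 nM GSK212, -0.67 (adjusted p = 0.00346) with the combination of 0.1 µM and -0.79 (adjusted p = 0.000322) with that of 1 µM. The last 3 passed the adjusted p but not the required size; lower probe sets with such a p, of any size, made up 1.42%, 1.74% and 2.83% of those tested. Relative to the median of all probe sets, these 3 were -0.83, -0.85 and -0.98. With each array centred on its median they were -1.03, -1.004 and -1.14, and were called. The estimate with 0.1 µM GSK436 was below 0 with that centring (-0.10).

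Parental MCL1 was 2.42-fold lower with 0.1 µM GSK436 than with DMSO (log2 change -1.28 ± 0.15 SE, adjusted p = 1.13e-07) and 2.4-fold lower with 1 µM (-1.26 ± 0.15, adjusted p = 8.92e-08). It was 2.74-fold lower with 10 nM GSK212 (-1.45 ± 0.13, adjusted p = 2.17e-10) and 2.93-fold lower with 30 nM (-1.55 ± 0.15, adjusted p = 1.09e-09). The combinations gave 3.12-fold (-1.64 ± 0.13, adjusted p = 1.58e-11) and 2.58-fold lower signals (-1.37 ± 0.13, adjusted p = 9.01e-10). In these 6 comparisons 5.39%, 6.43%, 3.3%, 2.7%, 2.81% and 5.02% of probe sets were called lower. Relative to the median of all probe sets the changes were -1.59 to -1.86. With the actin ratio as a covariate they were -1.39 to -1.65, all called, and without the arrays above 20 the 4 groups that kept an array gave -1.28 to -1.62, all called. Of those 4, 30 nM GSK212 and the combination of 1 µM kept 1 array each, which is taken to vary like the other groups.

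The second MCL1 probe set, 200798_x_at, had changes of the same sign as the first in 11 of 12 comparisons with DMSO. The exception was the clone with 0.1 µM GSK436, at -0.54 ± 0.30 by this probe set (adjusted p = 0.94). In the clone it read 709.9 to 1589 with 0.1 µM GSK436, 1461 to 1497 with 1 µM GSK436, 847 to 988 with 10 nM GSK212 and 565 to 1066 with 30 nM GSK212. The combinations read 678 to 867 and 715 to 841, against 1439.8 and 1872 with DMSO. Both combinations were called lower in the clone by this probe set, at -1.08 ± 0.30 (adjusted p = 0.0284) and -1.05 ± 0.30 (adjusted p = 0.0273). In parental cells it read 272 and 355 with 0.1 µM GSK436, 361 and 297 with 1 µM GSK436, 364 to 835 with 10 nM GSK212, 791 and 495 with 30 nM GSK212, 388 to 757 with the combination of 0.1 µM and 348 to 411 with that of 1 µM, against 1331 to 1951 with DMSO. All 6 parental changes were called, at -1.44 to -2.44 with adjusted p between 2.52e-07 and 0.00105.

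The other 4 MCL1 probe sets gave fewer calls. Probe set 214056_at was called lower in parental cells with both combinations, at -1.62 (adjusted p = 0.00677) and -1.23 (adjusted p = 0.0352). Probe set 200796_s_at, which passed the filter's threshold on 5 of 38 arrays, was called lower in parental cells with 0.1 µM GSK436 (-2.78, adjusted p = 0.0457) and 10 nM GSK212 (-2.95, adjusted p = 0.0202). Probe sets 214057_at and 227175_at were called in no comparison with DMSO in either line. Over the 38 arrays the correlation with 200797_s_at was 0.74 for 200798_x_at, 0.61 for 214056_at, 0.54 for 200796_s_at, 0.16 for 214057_at and 0.01 for 227175_at, a description over arrays that share treatments.

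The difference between lines was tested as the change in the clone minus the change in parental cells. Of 42 such tests on the 7 genes, 3 were called, all MCL1 and all higher, where 1.95% of all probe set tests were called and 0.983% were higher. By treatment, the share of probe sets called in either direction was 2.46% at 0.1 µM and 6.62% at 1 µM for GSK436, 1.08% at 10 nM and 0.463% at 30 nM for GSK212, and 0.476% and 0.63% for the combinations. MCL1 was 1.44 ± 0.21 higher on the log2 scale with 0.1 µM GSK436 (adjusted p = 3.36e-05), 1.09 ± 0.21 with 1 µM GSK436 (adjusted p = 0.000826) and 1.13 ± 0.20 with 10 nM GSK212 (adjusted p = 0.000815). With 30 nM GSK212 the difference was 0.92 ± 0.21 (adjusted p = 0.0265) and with the combination of 0.1 µM 0.97 ± 0.20 (adjusted p = 0.00836), both under the required size. Higher probe sets with such a p made up 0.231% and 0.307% of those tested. With the combination of 1 µM it was 0.58 ± 0.20 (adjusted p = 0.241). The clone's DMSO group decided part of this count, since 1 test was called without its replicate 2, where 1 µM GSK436 gave 0.94 and 10 nM GSK212 0.98, and 5 without its replicate 1. With quantile normalization 1 µM GSK436 gave 0.96 (adjusted p = 0.00436), under the required size. With the mean of the 6 probe sets none of the 3 was called, at 0.92 (adjusted p = 0.247), 0.76 (adjusted p = 0.27) and 0.67 (adjusted p = 0.594). Without arrays of actin ratio above 20, which leaves 1 array of the clone with 10 nM GSK212, the difference for that dose was 1.05 (adjusted p = 0.0837) and neither GSK436 difference could be had.

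By 200798_x_at the differences were 1.90 ± 0.43 with 0.1 µM GSK436 (adjusted p = 0.00834) and 2.22 ± 0.43 with 1 µM GSK436 (adjusted p = 0.00104), both called. With 10 nM GSK212 that probe set gave 0.87 ± 0.41 (adjusted p = 0.498), and with the other treatments 0.44 to 1.11 with adjusted p of 0.299 or more. The probe sets thus both called the GSK436 doses and split on 10 nM GSK212.

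**Figure D3:**
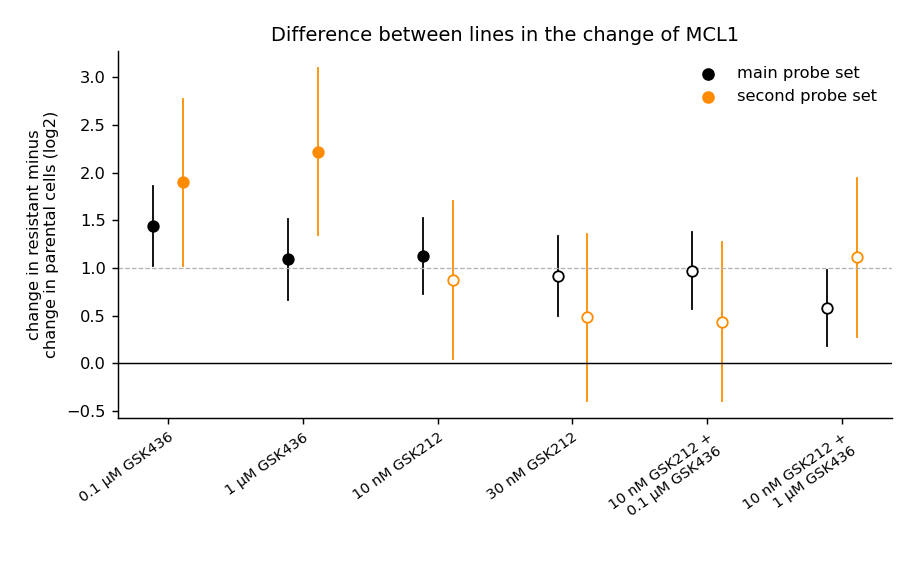
Difference between the lines in the change of MCL1 (y axis, change in the resistant clone minus change in parental cells, log2) for each treatment (x axis), by probe sets 200797_s_at (black) and 200798_x_at (orange). Points are estimates, lines are 95% intervals, filled points were called and the dashed line marks 1. The GSK436 doses are filled for both probe sets.

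Adding GSK212 to GSK436 was set against each single drug. In the clone MCL1 was -0.83 ± 0.13 with the combination of 0.1 µM relative to 0.1 µM GSK436 alone (adjusted p = 4.44e-05) and -0.62 ± 0.13 with that of 1 µM relative to 1 µM GSK436 alone (adjusted p = 0.00163). The arrays did not overlap in either case, as for 8.04% and 12.2% of all probe sets on the lower side, and neither change had the required size. Lower probe sets with such a p made up 2.2% and 2.84% of those tested. Relative to 10 nM GSK212 alone the clone's combinations were -0.34 (adjusted p = 0.947) and -0.47 (adjusted p = 0.0937). In parental cells the largest such difference of MCL1 was -0.36 ± 0.15, for the combination of 0.1 µM relative to 0.1 µM GSK436 (adjusted p = 0.162). Over all 84 tests of combinations against single drugs and of dose against dose, 0 were called among the 7 genes by limma, where 0.761% of all probe set tests were called. Of the 84, 10 had an unadjusted p under 0.05, a share not tallied for all probe sets.

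BCL2L1 (chr20:31664452-31723963), the gene of the survival protein BCL-XL, was called in no comparison with DMSO. Its lowest group means in parental cells were those with 30 nM GSK212 and the combination of 0.1 µM. In the clone the means with 30 nM GSK212, the combination of 0.1 µM and that of 1 µM were nearly equal, at 165, 164 and 166. Probe set 212312_at read 187, 149.5 and 159 with 30 nM GSK212 in the clone, 159 to 170.4 with the combination of 0.1 µM and 119 to 217 with that of 1 µM, against 298 and 271 with DMSO. None of those 9 arrays overlapped the DMSO arrays; the shares of all probe sets without overlap are those given for MCL1. The changes were -0.78, -0.79 and -0.81 ± 0.30 with adjusted p of 0.155, 0.137 and 0.0984. With 10 nM GSK212 it read 185, 185 and 229, and with GSK436 alone it read 177 to 403 over 6 arrays, on both sides of DMSO.

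In parental cells BCL2L1 read 168 to 227 with 10 nM GSK212 (-0.28 ± 0.27, adjusted p = 0.578), 96.0 and 182 with 30 nM GSK212, 121 to 206 with the combination of 0.1 µM and 217 to 251 with that of 1 µM, against 196, 236 and 324 with DMSO. The 30 nM change was -0.89 ± 0.30 (adjusted p = 0.0481), which passed the adjusted p and not the required size; lower probe sets with such a p, of any size, made up 4.95% of those tested. It was called without DMSO replicate 1 (-1.05, adjusted p = 0.0347) and without replicate 3 of its own group (-1.34, adjusted p = 0.0192), which leaves 1 array there, taken to vary like the other groups. The change was -0.75 ± 0.27 with the combination of 0.1 µM (adjusted p = 0.0546) and -0.06 ± 0.27 with that of 1 µM (adjusted p = 0.896), whose arrays lay inside the DMSO range. With 0.1 µM GSK436 it read 392 and 238, the highest mean of all 14 groups at 315 ± 109 (SD, n = 2), and the lowest mean was that of parental cells with 30 nM GSK212, 139 ± 60.7 (SD, n = 2). All 13 neighbouring pairs in the order of the 14 means overlapped. Relative to the median of all probe sets the change with 30 nM GSK212 was -0.98 in the clone and -1.10 in parental cells. With arrays centred on their medians, 5 of the 12 drug changes of BCL2L1 were called lower, 3 in the clone (-1.12 to -1.18) and 2 in parental cells (-1.25 and -1.14). With the actin ratio as a covariate BCL2L1 was called lower in the clone with 30 nM GSK212 (-1.02) and the combination of 0.1 µM (-1.11), and in parental cells with 30 nM GSK212 (-1.04). With the mean of its probe sets it was called lower in parental cells with 10 nM (-1.08) and 30 nM GSK212 (-1.52). Without arrays of actin ratio above 20 it was called with 30 nM GSK212 in parental cells (-1.34, 1 array).

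The clone's combination of 0.1 µM read lower in BCL2L1 than 0.1 µM GSK436 alone, by -0.87 ± 0.27 (adjusted p = 0.0438), under the required size, and without replicate 1 of 0.1 µM GSK436 it was -1.10 (adjusted p = 0.0152) and called. The same difference in parental cells was -1.06 ± 0.30 (adjusted p = 0.0625). It was called without replicate 3 of 0.1 µM GSK436 (-1.41, adjusted p = 0.0439) and without replicate 1 of the combination (-1.30, adjusted p = 0.0246). The other 3 probe sets of BCL2L1, with 2 to 21 of 38 arrays over the filter's threshold, were called in no comparison with DMSO.

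BCL2L2 (chr14:23306833-23311751), the gene of the survival protein BCL-W, read 84.6 to 336 over the clone's 18 drug arrays against 224 and 281 with DMSO. Over parental cells' 15 drug arrays it read 125 to 246, against 225, 239 and 141 with DMSO. The 2 lowest parental group means were those with GSK436 alone, with arrays at 125 and 142 for 0.1 µM and at 135 and 125 for 1 µM, which gave -0.55 and -0.59 ± 0.33 with adjusted p of 0.213 or more. The 0.1 µM change was called with arrays centred on their medians (-1.16, adjusted p = 0.0487). It was also called with the mean of the probe sets (-1.24, adjusted p = 0.0461). That mean includes 1555140_a_at, which passed the filter's threshold on only 8 arrays. This second probe set gave -1.93 ± 0.88 for 0.1 µM (adjusted p = 0.117). Its arrays there read 3.69 and 4.64, against 19.1 to 33.6 with DMSO in parental cells. With the parental combination of 1 µM it gave 1.26 ± 0.79 (adjusted p = 0.27), while the other 5 parental changes were below 0. It was called in no comparison with DMSO. No drug change of 209311_at in either line had an unadjusted p under 0.05. The means ran between 282 ± 13.3 (SD, n = 3, clone with 1 µM GSK436) and 130.02 ± 6.76 (SD, n = 2, parental with 1 µM GSK436), and all 13 neighbouring pairs overlapped.

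BCL2 (chr18:63123346-63320090), the founding survival gene of the family, gave readings that went opposite ways by probe set in parental cells. Probe set 207004_at, with the highest mean, is tied by the platform annotation to the beta transcript record, and 203685_at to the alpha transcript record. By 207004_at the clone read 7.64 to 79.6 with drug against 34.4 and 32.3 with DMSO, and parental cells read 23.3 to 103.7 with drug against 25.9, 12.5 and 58.0 with DMSO. Its 6 changes were -0.02 to 0.49 in the clone and 0.57 to 1.28 in parental cells, with standard errors of 0.64 to 0.71 and adjusted p of 0.207 or more.

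By 203685_at the clone read 55.5 to 62.3 with 0.1 µM and 43.0 to 54.2 with 1 µM GSK436, 31.8 to 46.9 with 10 nM GSK212 and 27.2 to 30.6 with 30 nM GSK212. Its combinations read 26.6 to 50.8 and 28.9 to 32.1, against 58.2 and 51.9 with DMSO. None of the clone's 6 changes had an unadjusted p under 0.05. Parental cells read 54.2 and 36.1 with 0.1 µM GSK436, 14.01 and 33.6 with 1 µM GSK436, 33.4, 15.7 and 32.9 with 10 nM GSK212 and 25.4 and 48.9 with 30 nM GSK212. The combinations read 77.1, 27.9 and 22.4 and 72.3, 15.1 and 36.5, against 68.0, 73.4 and 68.8 with DMSO. Replicate 1 of each combination thus stayed at the DMSO level and the other arrays lay below it. The change was called with 1 µM GSK436 (-1.56 ± 0.51, adjusted p = 0.0263) and with 10 nM GSK212 (-1.34 ± 0.46, adjusted p = 0.0428), and the other 4 were -0.63 to -0.96 with adjusted p of 0.137 or more. The difference between lines was 1.39 ± 0.72 with 1 µM GSK436 (adjusted p = 0.268) and was called with no treatment. The correlation of both probe sets over the 38 arrays was -0.30.

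**Figure D4:**
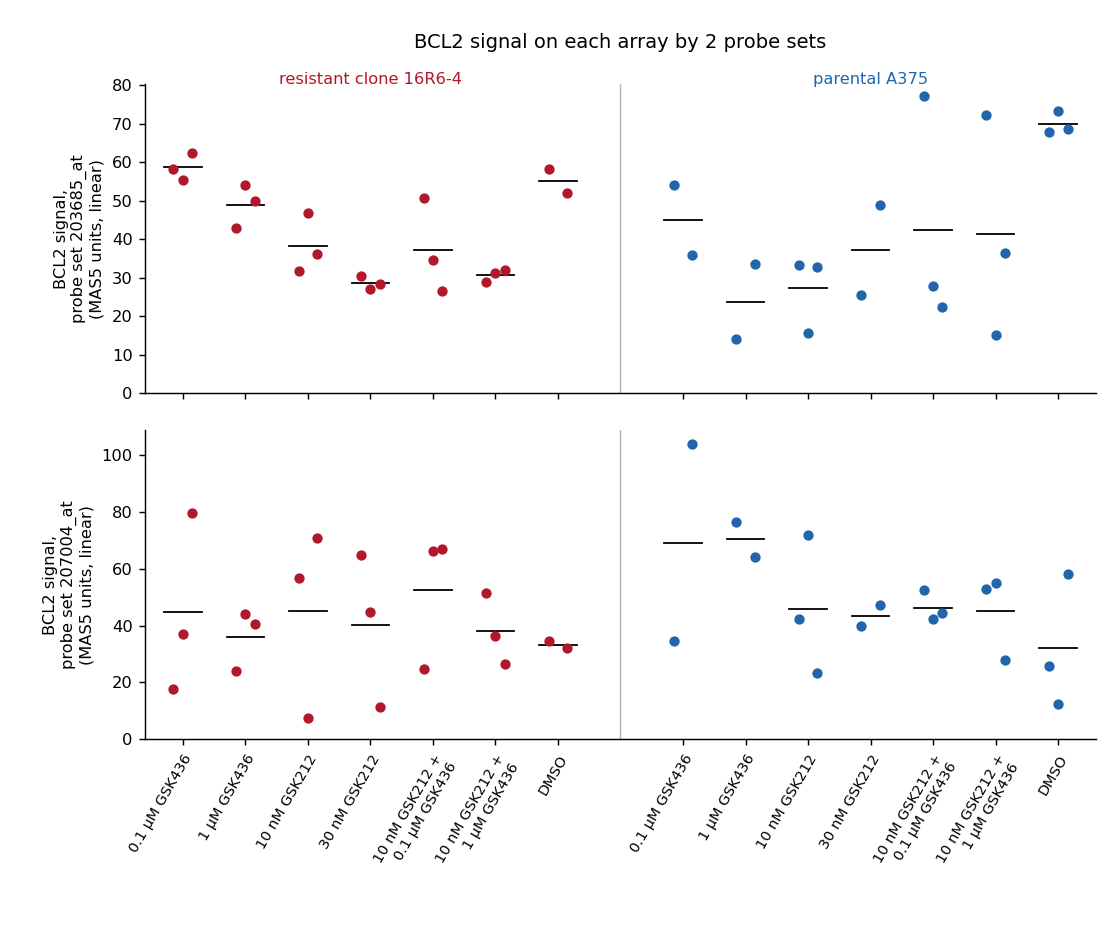
BCL2 signal on each of the 38 arrays (y axis, linear MAS5 units from 0) by treatment, for probe sets 203685_at (top) and 207004_at (bottom), in the resistant clone (left) and parental cells (right). Points are arrays and bars are group means. In the top panel parental arrays with 1 µM GSK436 or 10 nM GSK212 lie at 14.01 to 33.6 against 68.0 to 73.4 with DMSO, which the bottom panel does not show.

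The other BCL2 probe sets, 207005_s_at and 203684_s_at, passed the filter's threshold on 5 and 2 of 38 arrays and were called in no comparison with DMSO.

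BCL2A1 (chr15:79960892-79971196) encodes a survival protein that in melanoma is known as a target of MITF, which binds the E-box CACGTG and the M-box CATGTG. The 250 bases before its RefSeq transcription start (chr15:79971197-79971446, minus strand, GRCh38.p14) are shown because MITF itself differed between the lines, with the M-box in capitals, 25 to 20 bases before the start.
BCL2A1: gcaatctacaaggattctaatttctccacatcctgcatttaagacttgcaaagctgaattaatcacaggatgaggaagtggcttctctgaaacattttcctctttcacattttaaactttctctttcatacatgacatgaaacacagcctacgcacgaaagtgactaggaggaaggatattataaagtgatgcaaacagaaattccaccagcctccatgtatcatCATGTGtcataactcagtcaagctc
Both strands were searched, and CATGTG was found in 9.42% of 35116 RefSeq promoter windows of that length. Promoter windows were matched for 5 of the 7 genes, not for MCL1 or BCL2L2, and those of BCL2, BCL2L1 and BAK1 held neither motif. A match describes the letters and shows no binding.

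MITF was higher in the clone than in parental cells with DMSO by 1.73 ± 0.22 on the log2 scale (adjusted p = 1.63e-06). BCL2A1 read 1.65 to 40.7 over the clone's 20 arrays and 8.85 to 54.3 over the 18 parental arrays, with only 3 of 38 arrays over the filter's threshold. With DMSO it read 13.6 and 8.13 in the clone against 15.3, 8.85 and 25.2 in parental cells, a difference of -0.43 ± 0.65 (95% interval -1.76 to 0.89, adjusted p = 0.91). The drug changes were -0.64 to 0.89 in the clone, and 0.50 to 0.87 in parental cells with adjusted p of 0.31 or more. At these signals a change smaller than the distance from an estimate to the end of such an interval could not be told from 0, even before adjustment.

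BAX (chr19:48954875-48961798), the gene of a pore-forming protein that moves to mitochondria in apoptosis, was read by 211833_s_at. In the clone it read 203, 129 and 137 with the combination of 1 µM, against 337 and 269.6 with DMSO, without overlap, as for 13.7% of all probe sets on the lower side. That change was -0.97 ± 0.37 (unadjusted p = 0.0122, adjusted p = 0.115), and it did not pass. The other 5 changes in the clone were -0.15 to -0.49. Over parental cells' 15 drug arrays it read 129.8 to 373 against 205 to 252 with DMSO, so the DMSO arrays lay inside the drug range, and the changes were -0.30 to 0.19 with adjusted p of 0.605 or more. The second BAX probe set, 208478_s_at, gave -0.64 to -1.28 in the clone, with 4 of 6 unadjusted p under 0.05 and adjusted p of 0.0873 or more. In parental cells it gave -0.19 to -0.62, with adjusted p of 0.329 or more. With arrays centred on their medians, the clone's combination of 1 µM was called lower by the main probe set, at -1.32 (adjusted p = 0.0304).

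The 250 bases before the BAX start (chr19:48954625-48954874, plus strand, GRCh38.p14, RefSeq) hold the E-box, which MYC and MITF both bind, 4 times. The window is shown since MYC changed with drug in parental cells, and the capitals mark CACGTG, beginning 138, 93, 45 and 14 bases before the start.
BAX: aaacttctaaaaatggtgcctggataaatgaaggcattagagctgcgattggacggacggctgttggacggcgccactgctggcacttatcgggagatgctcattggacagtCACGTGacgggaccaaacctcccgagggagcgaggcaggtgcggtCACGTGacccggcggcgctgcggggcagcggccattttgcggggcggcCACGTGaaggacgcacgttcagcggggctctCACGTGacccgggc
At least 1 CACGTG was found in 6.34% of 35116 promoter windows. MYC changed by -2.04 to 0.10 in the clone, with adjusted p of 0.0793 or more, and by -2.66 to -3.49 in parental cells, where all 6 treatments were called lower. BAX was not called in either line, and whether MYC acts on BAX was not tested.

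BAK1 (chr6:33572552-33580276), the gene of the pore former that resides in the outer mitochondrial membrane, read 48.4 to 221 over the clone's 18 drug arrays, against 94.6 and 95.7 with DMSO. With the combination of 1 µM the clone's arrays read 88.5, 48.4 and 82.8, all below DMSO as for the same 13.7%. That change was -0.41 ± 0.33 with an unadjusted p above 0.05. The other way, arrays read 96.4 to 221 with 0.1 µM GSK436 and 103 to 122 with the combination of 0.1 µM. Those changes were 0.46 and 0.24 ± 0.33, also with unadjusted p above 0.05. The share of all probe sets that lay higher without overlap is not given here, so nothing is read from the overlap on that side. The DMSO arrays lay close together, so a lack of overlap was easily met. Over parental cells' 15 drug arrays it read 71.6 to 199 against 81.4, 90.8 and 132 with DMSO. The 2 highest parental group means were those with GSK436, with arrays at 151 and 139 for 0.1 µM and at 130.3 and 199 for 1 µM. The array at 199 lay above every array of the other parental groups, which reached 177. The 1 µM change was 0.69 ± 0.33 (unadjusted p = 0.0449, adjusted p = 0.138). Of the 13 neighbouring pairs of means, 12 overlapped for BAK1 and 13 for BAX.

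**Figure D5:**
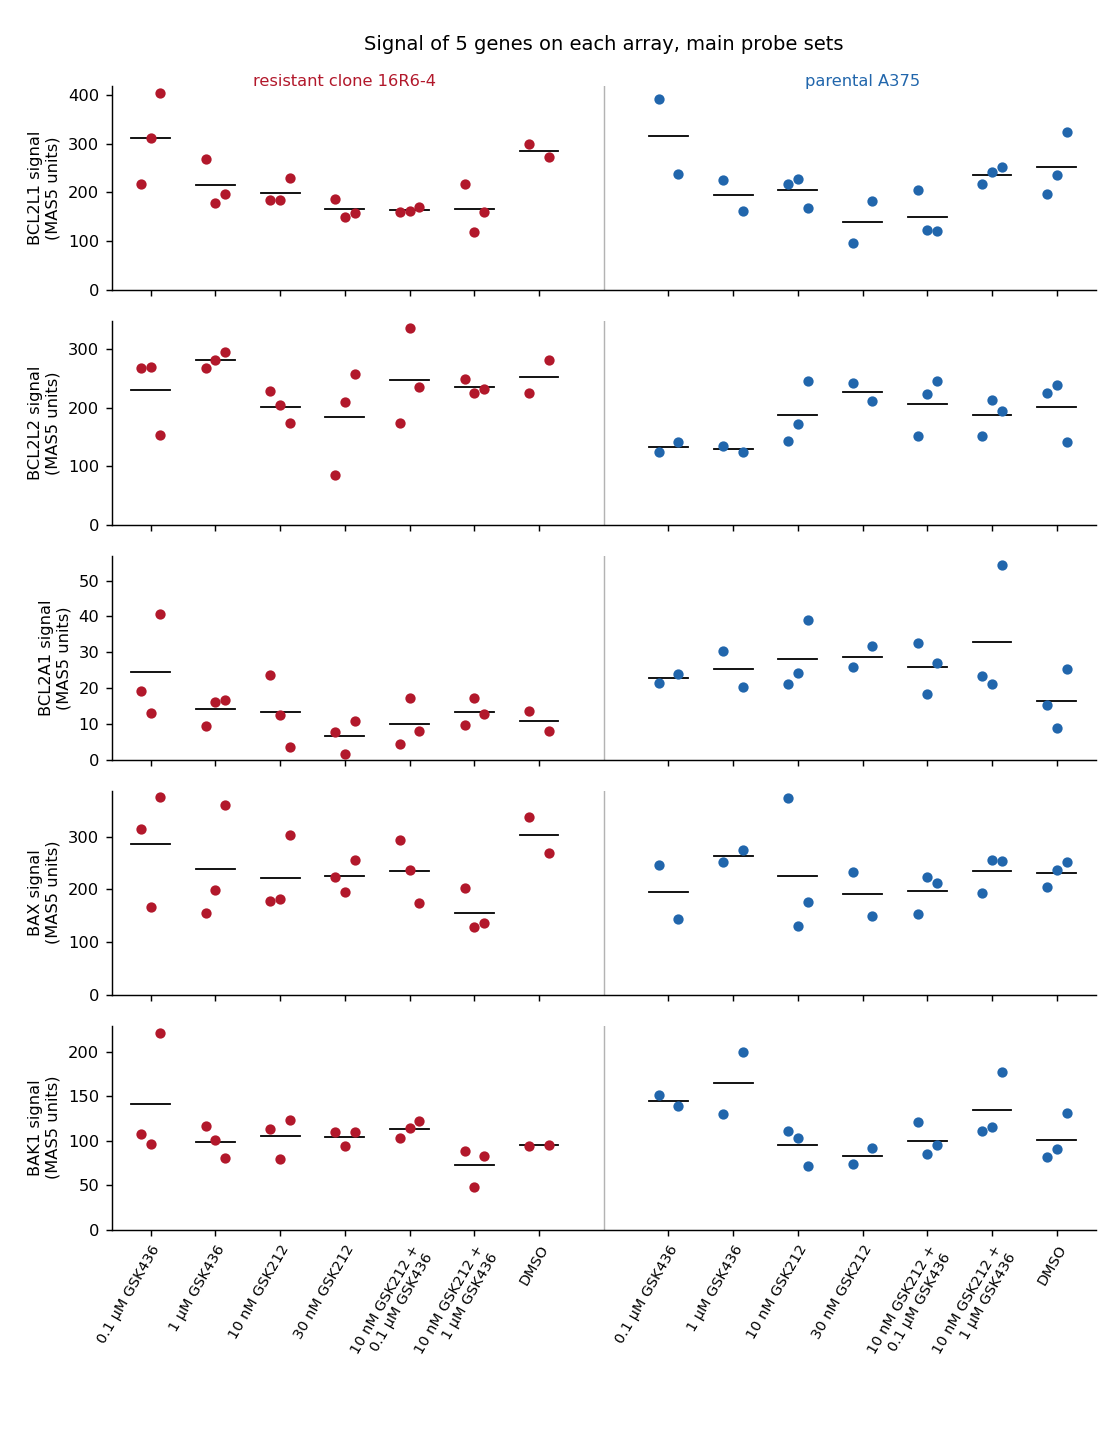
Signals of BCL2L1, BCL2L2, BCL2A1, BAX and BAK1 (top to bottom, main probe sets) on each of the 38 arrays (y axes, linear MAS5 units from 0) by treatment, in the resistant clone (left) and parental cells (right). Points are arrays and bars are group means. BCL2L1 in the clone with 30 nM GSK212 lies at 149.5 to 187 against 271 and 298 with DMSO, and BCL2A1 stays under 55 throughout.

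With DMSO the lines did not differ by a call in any of the 7 genes (0 of 7 by limma, 0 with an unadjusted p under 0.05, where 2.46% of all probe sets were called). MCL1 read 3128 and 2527 in the clone against 3141, 3047 and 3659 in parental cells, a difference of -0.22 ± 0.15 (95% interval -0.52 to 0.08, adjusted p = 0.661). BAX read 337 and 269.6 in the clone against 205, 236 and 252 in parental cells. It was the one gene of the 7 without overlap by its main probe set, as for 30.6% of all probe sets. That difference was 0.38 ± 0.37 (95% interval -0.36 to 1.13, adjusted p = 0.813). Other probe sets without overlap were 208478_s_at of BAX, 203685_at and 203684_s_at of BCL2, 206665_s_at of BCL2L1 and 214056_at of MCL1, none of them called. By main probe sets the other 5 differences were -0.43 to 0.35, and the 95% interval was widest for BCL2, at -1.18 to 1.72.

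Over the 14 group means, the genes most like MCL1 by Pearson correlation, among 15231 genes that spanned at least 1 on the log2 scale, were UBE2S (0.98), PRPF4 (0.98) and PUM3 (0.98). For BCL2L1 they were TCOF1 (0.90), TRMU (0.89) and HMGA1 (0.87), and for BCL2L2 FOXF2 (0.95), DCUN1D4 (0.92) and MNAT1 (0.91). For BAK1 they were GFER (0.91), LOC375196 (0.90) and SPOUT1 (0.90). For the low signals of BCL2A1 they were NR2F1-AS1 (0.95), KCNAB1 (0.94) and LOC101927967 (0.92). For BCL2 by 207004_at they were NKX2-3 (0.94), CD244 (0.93) and NOXO1 (0.92). The means of BAX spanned 0.97 and were not ranked. Between the 7 genes, by main probe sets, the correlation of MCL1 over the 14 means was 0.55 with BCL2L1 and 0.54 with BAX. It was -0.66 with BCL2, by 207004_at alone. The BCL2 probe set 203685_at correlated with 207004_at at -0.30 over the 38 arrays. Its highest group mean was that of parental cells with DMSO, as for MCL1. The groups share lines and drugs, so these are descriptions.

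Of the BH3-only genes, whose proteins bind the 7, 7 of 8 listed were tested (not BBC3). In the clone 1 of 7 was called higher with the combination of 1 µM and 0 with the other 5 treatments. In parental cells 2 or 3 of 7 were called higher and 1 lower with each treatment. BMF, the gene of a BH3-only protein tied to the cytoskeleton, changed by 0.31 to 2.13 in the clone with adjusted p of 0.0575 or more, and rose by 3.69 to 4.50 in parental cells, all 6 called. BIK, the gene of a BH3-only protein of the endoplasmic reticulum, rose by 1.29 ± 0.26 with the clone's combination of 1 µM (adjusted p = 0.000922) and by 1.39 to 1.95 with all 6 parental treatments. PMAIP1, the gene of NOXA, which binds MCL1 selectively, changed by -0.93 to 0.06 in the clone and fell by 1.20 to 3.36 in parental cells with all 6. The PMAIP1 difference between lines was called higher with 5 of 6 treatments, at 1.26 to 2.68. BCL2L11, the gene of BIM, was not called, at 0.03 to 0.30 in the clone and 0.38 to 0.68 in parental cells. HRK was higher in the clone than in parental cells with DMSO, by 2.05 ± 0.42 (adjusted p = 0.00186), and rose in parental cells with 1 µM GSK436 (1.40) and the combination of 1 µM (1.80).

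Downstream of the pore, CYCS, the gene of cytochrome c, was not called in the clone and fell in parental cells by 1.19 with 0.1 µM GSK436, 1.38 with 1 µM GSK436 and 1.09 with the combination of 1 µM. Of the 7 tested genes of 10 listed for the apoptosome, caspases and their inhibitors, 0 were called in the clone with any treatment and at most 2 a treatment in parental cells. Of the 3 VDAC channel genes 0 were called in the clone, and in parental cells VDAC1 fell with both GSK436 doses (-1.18 and -1.15) and VDAC2 with 1 µM (-1.15). Of 5 other BCL2 family genes, BCL2L13 rose in parental cells with 30 nM GSK212 (1.19) and with the combination of 0.1 µM (1.01), and none was called in the clone. Of 5 genes whose proteins add or remove ubiquitin on MCL1, 0 were called in the clone, and in parental cells USP9X, a deubiquitinase, rose with 0.1 µM GSK436 (1.06) and MARCHF5, a ubiquitin ligase, fell with 1 µM (-1.24).

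ERK output was read from 8 genes that ERK activity keeps high, among them DUSP6, a phosphatase of ERK. In the clone 0 of 8 were called with either dose of GSK436, 6 with 10 nM GSK212 and 7 with 30 nM GSK212 or a combination, all lower. In parental cells 8 of 8 were called lower with every treatment except 30 nM GSK212, with 7. Their median change was -0.17 and -0.32 with GSK436 alone and -2.64 to -4.04 with GSK212 or a combination in the clone, and -3.16 to -5.08 in parental cells. Set beside these, MCL1 changed by 0.16 and -0.17 with GSK436 alone and by -0.32 to -0.79 with GSK212 or a combination in the clone, and by -1.26 to -1.64 in parental cells. These comparisons share their DMSO arrays within a line.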

How the data were processed

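The deposited values were array signals (intensity, linear scale) made by the authors with MAS5, per the submitters' processing notes; its version and settings are not given in the sources used here. All 38 arrays had the same mean after trimming 2% at each end. Total RNA (500 ng) was extracted with Trizol and labelled with biotin, per the labels' protocols. Genes were named from the platform annotation of 2016, in which 41097 of 54675 probe sets name 1 gene, 1801 several and 11777 none, and 41043 matched RefSeq with 0 symbols updated.

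Values were taken as log2(signal + 2.8), the pseudocount being the 10th percentile of all values, so fold changes of low signals are understated. The 35888 probe sets (18063 genes) with at least 2 arrays over the pooled median of 34.9 entered one limma fit (3.58.1, R 4.3.3) of 14 group means, with eBayes and trend, 24 residual degrees of freedom and Benjamini-Hochberg adjustment within each of 31 comparisons. The number of arrays limits the precision. The fit was tested on simulated data with known changes of a smaller and a larger size, both above the required size. Against DMSO in parental cells 34% to 41% of the smaller and 52% to 64% of the larger changes were called. For differences between lines it was 18% to 25% and 39% to 47%. A probe set that was not called may thus still have changed. The simulation changed far fewer probe sets than were called in parental cells, so these shares may differ from those of the real fit. Gene lists and members were chosen with earlier results of these data known. Other genes were named from fixed lists, by calls and largest changes, and by correlation of the 14 means. Within groups, array pairs correlated at 0.85 to 0.94, and 0 pairs were identical. Alternatives covered scaling, pseudocount, filter, probe set choice, model, actin ratio, array weights, replicates left out and, chosen after seeing the data, the call rule and the probe set of BCL2 and MCL1. Sequences came from RefSeq tables of GRCh38.p14.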

Additional observations from a re-analysis of the deposited data

Results flagged for a closer look

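The effect of drug on MCL1 differed between the lines by the test of the difference itself (limma, change in the clone minus change in parental cells, called at an adjusted p under 0.05 and a size of at least 1). By 200797_s_at it was 1.44 with 0.1 µM GSK436 (adjusted p = 3.36e-05), 1.09 with 1 µM GSK436 (adjusted p = 0.000826) and 1.13 with 10 nM GSK212 (adjusted p = 0.000815). With the mean of the 6 MCL1 probe sets these were 0.92, 0.76 and 0.67 (adjusted p = 0.247, 0.27 and 0.594) and not called, and with quantile normalization 1 µM GSK436 gave 0.96, under the required size. By 200798_x_at it was 1.90 with 0.1 µM GSK436 (adjusted p = 0.00834) and 2.22 with 1 µM GSK436 (adjusted p = 0.00104). With 10 nM GSK212 that probe set gave 0.87 (adjusted p = 0.498), not called. Without replicate 2 of the clone with DMSO, 200797_s_at gave 0.94 with 1 µM GSK436 and 0.98 with 10 nM GSK212, under the required size. Neither GSK436 difference could be had without arrays of actin ratio above 20. No group held 4 or more arrays, so single arrays were not tested as outliers.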

How the results depend on the processing

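Parental MCL1 kept an adjusted p under 0.05 and a negative sign for all 6 treatments under every alternative that could give a value. With the mean of a gene's probe sets, 2 of those changes fell under the required size, at -0.94 (1 µM GSK436) and -0.93 (30 nM GSK212). The count of parental calls among the 7 genes was 6. It was 9 with arrays centred, 8 with BCL2 read by 203685_at, 7 with the mean of the probe sets, 7 with the actin ratio as a covariate, 7 by adjusted p alone, 5 of 28 tests without arrays of actin ratio above 20, and 6 to 7 with a replicate left out. The clone's count of 0 became 3 by adjusted p alone, 2 with MCL1 read by 200798_x_at, 7 with arrays centred on their medians and 2 with the actin ratio as a covariate; leaving out a replicate kept it at 0. The count of 3 differences between lines became 5 by adjusted p alone, 0 with the mean of the probe sets, 0 of 28 tests without arrays of actin ratio above 20, and 1 to 5 with a replicate left out. The count of 0 for combinations and doses became 3 by adjusted p alone and 1 each with quantile normalization, the filter at the 75th percentile and array weights (BCL2L1, parental combination of 0.1 µM against 0.1 µM GSK436), and was 0 to 1 with a replicate left out. The count with DMSO was 0 throughout. BCL2 in parental cells reversed by probe set: 203685_at gave -1.56 with 1 µM GSK436 and -1.34 with 10 nM GSK212, against 1.28 and 0.57 by 207004_at. The cause of these changes was not tested. Centring moved the share of calls that were higher to 31.7% of calls in the clone, against 72.1% as deposited, and to 23.1% in parental cells, against 61.9%. It moved the share to 55.3% between lines with DMSO, against 41.1%, to 66.3% for the differences between lines, against 50.3%, and to 54.4% for combinations and doses, against 70.7%. Replicate numbers did not pair the arrays (same-numbered deviations correlated at -0.30 to 0.26, 17 of 38 arrays were closest to their own number), and with a replicate block the counts were 0, 6, 0, 3 and 0, as without it, with MCL1 at 1.45 for the line difference with 0.1 µM GSK436. The filter at the 75th percentile left out BCL2 and BCL2A1, and without arrays of actin ratio above 20 the parental GSK436 groups gave no value.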
